A study of Sinohyriopsis cumingii with 10 samples.

Results

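The dominant contigs of the pearl sac were the 141 assembled transcripts, of 211508 readable in every library, whose mean level over the series was at least 1000 CPM, CPM being the share of a library's reads scaled to a fixed total. They were selected on their measured mean over the same 10 libraries described below, so their high level is the criterion and not a finding. A contig is a stretch of transcript put together from reads, carries a number and no gene name here, and can be 1 of several pieces of a gene. The results follow single contigs: which held the most reads at each time, which took over from which, which moved together, and how long they were.

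The series followed the freshwater pearl mussel Sinohyriopsis cumingii after implantation, with 1 RNA library per time: 0, 2 and 6 h, 12 and 24 h, 48 and 96 h, then 7 and 14 d and finally 30 d. Per the labels, the animals were 2 years old with shells of 9 to 10 cm, all libraries were of tissue called pearl sac, and no untreated or mock-implanted group is among them. The labels do not say which tissue was taken at 0 h, or whether a library came from 1 mussel or several, and without gene names the tissue could not be checked against markers. Since each time had 1 library, animal and time cannot be told apart, and 2 times can be compared as values only.

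In pearl culture a piece of mantle is grafted into a host mussel, and its outer epithelium spreads into a closed pouch, the pearl sac, which lays down nacre around its content. Blood cells gather at the wound in the first stage, the epithelium then multiplies and closes, and secretion of shell matrix proteins follows. In secretory tissue a few transcripts commonly hold a large part of the messenger RNA, so the list of dominant transcripts gives a coarse picture of the cells present and of what they make. In RNA from whole tissue, fewer cells of a type and less RNA per cell cannot be told apart.

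Library totals ran from 20315910 to 24069268 reads. The dominant contigs together took 56.5, 55.6 and 58.6% of reads in the 0, 2 and 6 h libraries. In the 12, 24, 48 and 96 h libraries they took 43.3, 45.8, 35.5 and 36.8%. The low was 31.7% in the 7 d library, and those of 14 and 30 d had 36.0 and 43.8%. CPM is a share of a fixed total, so a contig can lose CPM because others gain. TMM factors, which rescale libraries so that most contigs stay level, ran from 0.594 at 6 h to 1.65 at 7 d and lower every 7 d value relative to 6 h. Ranks within a library and ratios of 2 contigs do not depend on this choice. Levels below are CPM on library totals unless TMM is named.

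3 contigs held the first rank in turn. Contig232834, of 2545 bases, was first in the 0, 2 and 6 h libraries, with 5.34, 3.77 and 5.62% of all reads. Contig169027, of 834 bases, was first in the 12 and 24 h libraries, with 2.35 and 3.27%, and again in that of 30 d, with 2.80%. Contig200588, of 1299 bases, was first in the 4 libraries between, from 48 h to 14 d, with 2.31, 3.09, 3.93 and 2.79%. The lead was wide at 7 d, where the first contig held 4.27 times the reads of the second, and narrow at 12 h and 30 d, where the ratio was 1.10 and 1.06.

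The 3 leaders differed in how they gave up and regained their place. Contig200588 stood at 28403, 23401, 21637, 19109 and 14729 CPM from 0 to 24 h, at 23098 and 30926 CPM at 48 and 96 h, and at 39328, 27941 and 26510 CPM at 7, 14 and 30 d. It never ranked below 5 and was the only contig among the first 10 of every library. Its level spanned 2.67-fold (95% counting interval 2.66 to 2.68), with 24 h the lowest library. On the TMM scale its highest library was 0 h, and the 7 d level was 0.655 of the 6 h level instead of 1.82 times it, so its direction between these times depends on scaling while its rank does not.

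Contig232834 went from 53444, 37688 and 56178 CPM at 0, 2 and 6 h to 21294 and 26588 CPM at 12 and 24 h. It was at 7822, 3472 and 2091 CPM at 48 h, 96 h and 7 d, and at 10597 and 21105 CPM at 14 and 30 d. The change from rank 1 at 6 h to rank 58 at 7 d was a 26.9-fold difference (26.6 to 27.1). Contig169027 stood at 26297, 32316, 33478, 23493 and 32668 CPM through 24 h. It was at 7083, 3169 and 2756 CPM from 48 h to 7 d, ranking 38 at 7 d, and at 7509 and 28035 CPM at 14 and 30 d. Both were low in the same libraries, but at 30 d contig169027 stood at 1.07 times its 0 h level and contig232834 at 0.395 of it. With TMM these ratios were 0.735 and 0.272, so a full return of contig169027 depends on scaling.

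**Figure D1:**
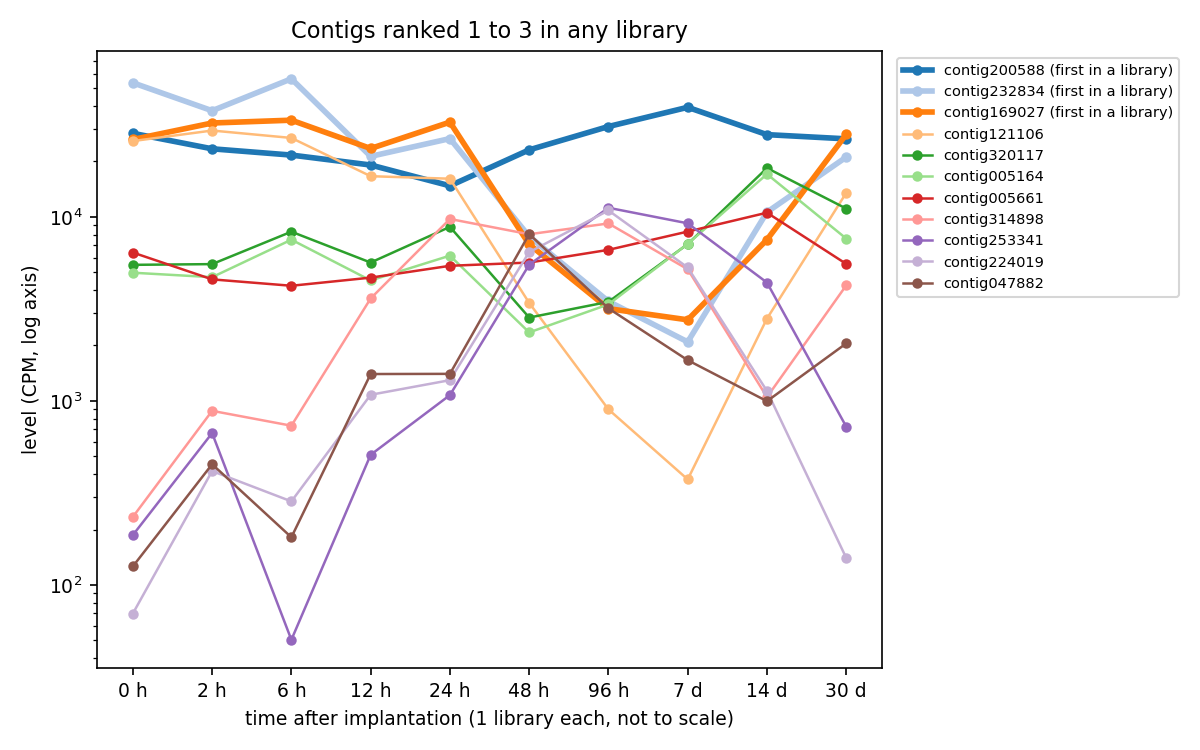
Levels of the 11 contigs that ranked 1 to 3 in any library, in CPM on a log axis against time, 1 library per time, with each contig as a line. Contig200588 stays between 14729 and 39328 CPM while contig232834 and contig169027 pass below it at 48 h and come back towards it at 30 d.

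The hand-over is plain in ratios taken within a library. Contig232834 held 1.88, 1.61, 2.60, 1.11 and 1.81 times the reads of contig200588 from 0 to 24 h. The ratio was 0.339, 0.112 and 0.0532 from 48 h to 7 d (counting interval of the last 0.0527 to 0.0537), then 0.379 and 0.796 in the last 2 libraries. The order of the pair thus turned once, between 24 and 48 h, and had not turned back at 30 d. Contig169027 stood at 0.926 of contig200588 at 0 h and between 1.23 and 2.22 times it from 2 to 24 h. It was at 0.307, 0.102, 0.0701 and 0.269 from 48 h to 14 d, and at 1.06 at 30 d. Set against each other, contig232834 and contig169027 kept a ratio between 0.753 and 2.03 in all 10 libraries, although each spanned over 10-fold.

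The contigs next in rank also changed hands at 48 h. Contig121106, of 3904 bases, held rank 3 at 2, 6 and 24 h, with 25779, 29413, 26809, 16615 and 16100 CPM from 0 to 24 h. It was at 3405, 899 and 374 CPM at 48 h, 96 h and 7 d, where it ranked 380, and at 2799 and 13486 CPM at 14 and 30 d, where it ranked 5. Its highest and lowest libraries differed 78.5-fold (76.8 to 80.3). In its place, contig047882 and contig314898 took ranks 2 and 3 at 48 h, contig253341 and contig224019 at 96 h, contig253341 and contig005661 at 7 d, and contig320117 and contig005164 at 14 d. At 30 d the first 3 were contig169027, contig200588 and contig232834, the same 3 as at 0 h in another order.

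Across the series 32 different contigs appeared among the first 10 of a library, and 10 appeared in a single library. All 32 were dominant contigs, which is no separate finding, since these were chosen by their mean level over the same libraries. Of the first 10 at 2, 6, 12 and 24 h, 8, 8, 8 and 9 had been among the first 10 of the library before. In the 5 libraries from 48 h on the number was 4, 5, 4, 5 and 5. The set therefore changed more at each step from 48 h on than at any step of the first day. A wider cut gave the same picture of partial return: the first 141 contigs at 0 h shared 60 with those at 7 d and 102 with those at 30 d, out of 141.

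Counting every pair of dominant contigs shows when the order as a whole was reshuffled. Of the 9870 pairs, 11.6% changed order from 0 to 2 h, 10.9% from 2 to 6 h, 18.6% from 6 to 12 h and 20.3% from 12 to 24 h. From 24 to 48 h 38.6% did, then 15.5% from 48 to 96 h and 16.6% from 96 h to 7 d. A further 24.6% turned from 7 to 14 d and 42.2% from 14 to 30 d. In the 992 contigs with a mean of 100 to 1000 CPM the same steps gave 18.7, 13.2, 23.0, 18.7, 24.8, 15.9, 15.6, 24.4 and 31.7%. The dominant contigs thus exceeded the less abundant class by over 10 percentage points from 24 to 48 h and from 14 to 30 d and were at or below it from 0 to 12 h. Over longer spans, 57.9% of pairs were in opposite order at 6 h and 7 d (43.9% in the less abundant class), 49.2% at 7 and 30 d (39.0%), and 19.7% at 0 and 30 d (21.6%). These shares are descriptions, since pairs share contigs and the classes differ in how widely their levels are spread.

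**Figure D2:**
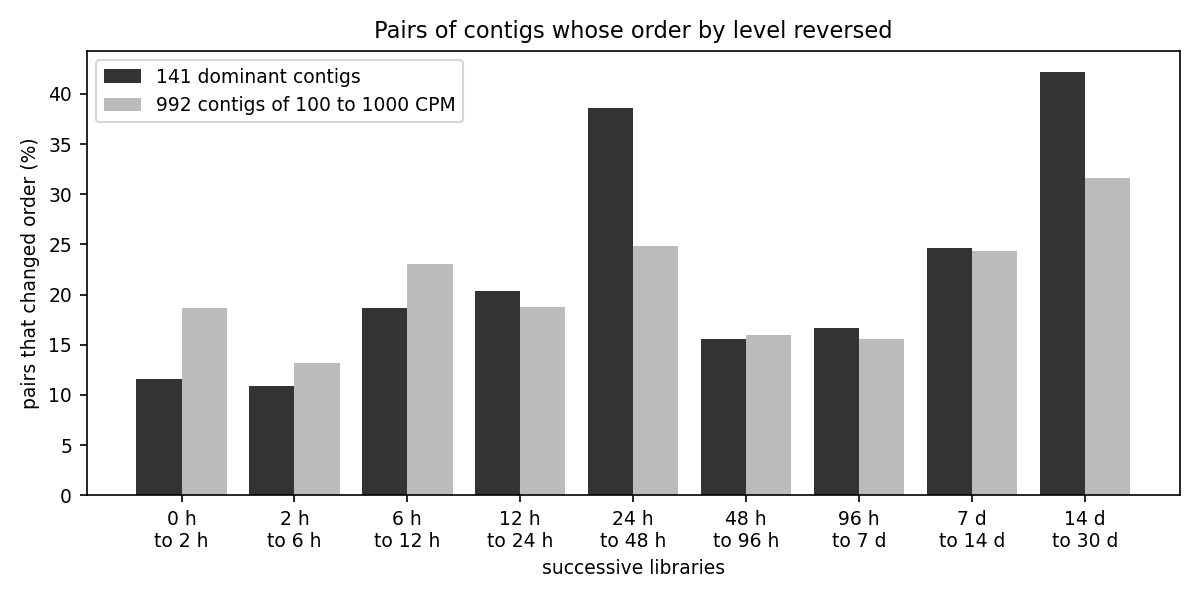
Percentage of contig pairs that changed order between successive libraries, for the 141 dominant contigs and for the 992 contigs with a mean of 100 to 1000 CPM. The dominant contigs lie above the other class at 24 to 48 h, 38.6 against 24.8%, and at 14 to 30 d, 42.2 against 31.7%, and below it at 0 to 2 h, 11.6 against 18.7%, and at 6 to 12 h, 18.6 against 23.0%.

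Shifts of at least 2-fold between successive libraries were counted with 1 CPM added on both sides, beside the share of the 52894 contigs with enough reads for a fit that passed the same fold. Of these 52894, 40.5% had a mean under 1 CPM, and the added 1 CPM limits how far such contigs can move, whereas no dominant contig had fewer than 233 reads in a library. The counts were therefore also read against the 992 contigs of 100 to 1000 CPM, a comparison added after the data were seen. From 0 to 2 h, 21 dominant contigs (14.9%) stood at least 2-fold higher and 3 lower, against a background of 7.52% and 3.27%. With TMM the counts were 19 and 5, against 8.73% and 5.86%. The 100 to 1000 CPM class had 13.1% higher and 5.24% lower, near the 14.9% and 2.13% of the dominant contigs. With TMM that class had 12.1% and 6.75%, beside 13.5% and 3.55%. From 2 to 6 h, 6 were higher and 9 lower (background 1.67% and 5.57%), or 12 and 4 with TMM (4.37% and 4.72%). The 100 to 1000 CPM class had 4.94% higher and 3.63% lower, beside 4.26% and 6.38% of the dominant contigs. With TMM that class had 9.38% and 1.41%, beside 8.51% and 2.84%. From 6 to 12 h, 20 were higher and 21 (14.9%) lower, where the background was 17.4% higher and 1.81% lower. With TMM 11 were higher and 57 lower (9.37% and 7.6%). In the 100 to 1000 CPM class 24.6% were higher and 5.75% lower, or 7.76% and 19.4% with TMM. The downward share of the dominant contigs at this step lay above that class on both scales.

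From 12 to 24 h, 8 were higher and 14 lower (2.27% and 3.05%), or 9 and 13 with TMM (2.41% and 2.99%). The 100 to 1000 CPM class had 5.54% higher and 11.7% lower, near the 5.67% and 9.93% of the dominant contigs. With TMM that class had 5.95% and 11.4%, beside 6.38% and 9.22%. From 24 to 48 h, 29 (20.6%) were higher and 38 (27.0%) lower, against 7.86% and 1.92%. TMM gave 14 and 54, against 1.93% and 5.03%. In the 100 to 1000 CPM class 20.6% were higher and 10.6% lower, or 7.26% and 21.6% with TMM, so the dominant contigs lay above that class in the downward share on both scales, while their upward share was 20.6%, or 9.93% with TMM. From 48 to 96 h the counts were 4 higher and 34 lower (1.1% and 1.84%), or 7 and 27 with TMM (1.29% and 0.924%). From 96 h to 7 d they were 9 and 32 (2.75% and 0.947%), or 2 and 47 with TMM (0.821% and 1.54%). The 100 to 1000 CPM class had 8.97% and 9.27% lower at these 2 steps, where the dominant contigs had 24.1% and 22.7%.

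The last 2 steps ran the other way. From 7 to 14 d, 38 (27.0%) were higher and 23 lower, against 4.65% and 13.2%, and with TMM 55 and 14, against 7.82% and 4.53%. From 14 to 30 d, 54 (38.3%) were higher and 36 (25.5%) lower, against 5.5% and 8.46%, and with TMM 63 and 26, against 6.98% and 5.11%. In the 100 to 1000 CPM class 14.6% and 15.4% were higher at these 2 steps, and 16.7% and 24.6% lower, so the dominant contigs exceeded that class in the upward share. Between 6 h and 7 d, at a 4-fold limit, 20 dominant contigs were higher and 47 (33.3%) lower, against 6.23% and 1.17% of all contigs. With TMM 4 were higher and 65 lower (46.1%), against 0.461% and 3.27%. The 100 to 1000 CPM class had 15.0% higher and 11.2% lower, or 2.52% and 20.4% with TMM. The median contig of all those tested moved by 0.71 on the log2 scale between these 2 libraries under library totals and by 0.02 under TMM, and the median dominant contig by -0.08 and -1.55.

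At 3 steps the contigs with the largest gains and losses of share are named here, after their values were seen. They held a minor part of the exchange, which was spread over many contigs. From 6 to 12 h the dominant contigs that lost share gave up 20.4 percentage points of all reads and those that gained took 5.10 points. Contig232834 alone lost 3.49 points, and contig058551, which stood at 5951 CPM at 2 h, 17946 CPM at 6 h and 4451 CPM at 12 h, lost 1.35. From 24 to 48 h the losses came to 21.1 points and the gains to 10.8. Contig169027 lost 2.56 points, contig232834 1.88 and contig121106 1.27, whereas contig200588 gained 0.837, contig047882 0.666 and contig044707 0.588. Each of these 3 losses was larger than the largest gain. From 14 to 30 d the gains came to 19.7 points and the losses to 11.9. Contig169027 gained 2.05 points, contig121106 1.07 and contig232834 1.05, while contig005164 lost 0.944, contig276496 0.885 and contig320117 0.732.

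**Figure D3:**
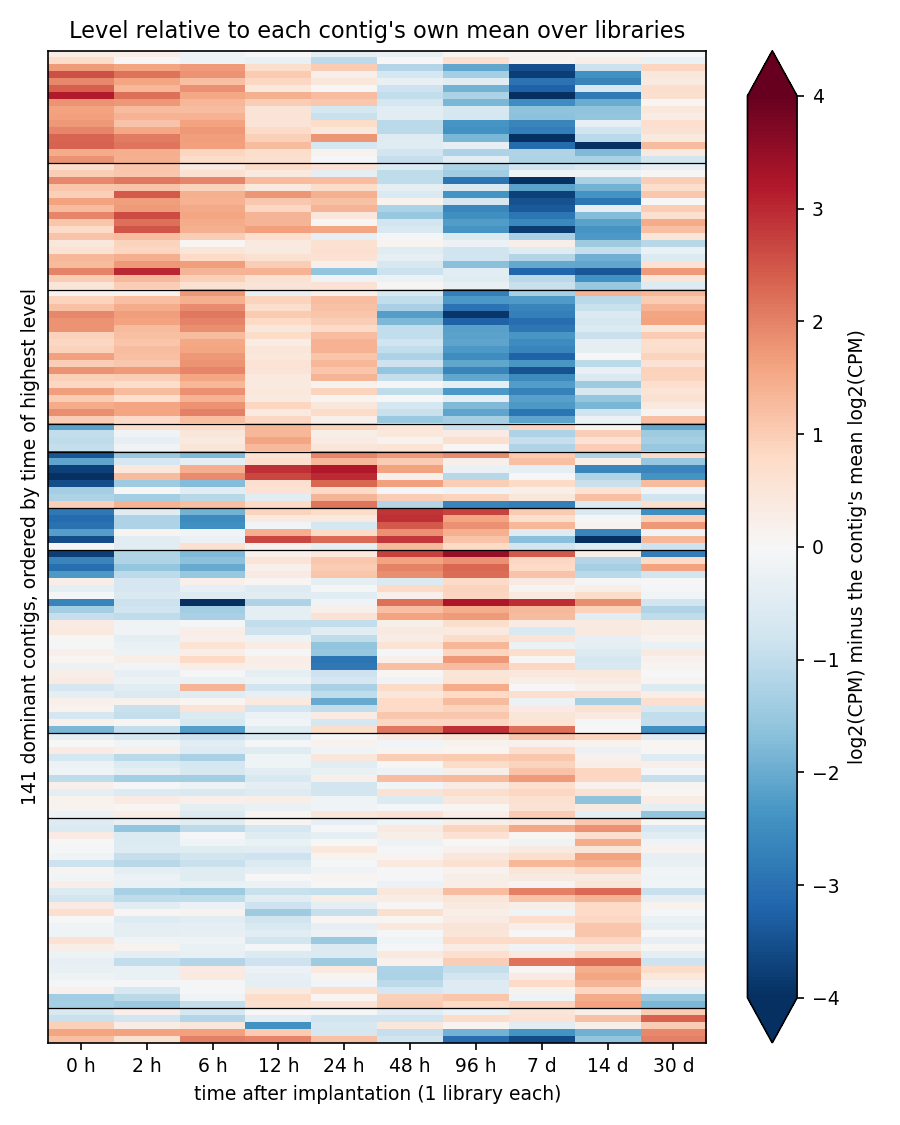
Level of each of the 141 dominant contigs (rows, ordered by the library in which it was highest) in the 10 libraries (columns), as log2 of CPM minus the contig's own mean of log2 CPM. Many of the 53 rows highest at 0 to 6 h are low from 48 h to 7 d and higher again at 30 d, but not every row is, and rows highest from 48 h on differ in their first-day levels.

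By the library in which each was highest, 53 dominant contigs peaked at 0 to 6 h, 12 at 12 or 24 h, 44 at 48 h to 7 d and 32 at 14 or 30 d. With TMM these counts were 85, 15, 20 and 21, so the size of the first and of the 2 later sets depends on scaling. The 53 contigs highest at 0 to 6 h held 41.1% of all reads at 6 h, 26.7 and 9.44% at 24 and 48 h, 3.96% at 7 d and 24.3% at 30 d. The 44 highest at 48 h to 7 d held 9.34% at 6 h, 20.9% at 96 h, and 16.9 and 10.6% at 7 and 30 d. The 32 highest at 14 or 30 d held 6.39% at 6 h, then 14.2 and 7.71% at 14 and 30 d. The 12 highest at 12 or 24 h held 0.583% at 0 h, 4.73% at 24 h and 1.25% in the last library. Because the sets were formed by the same levels, these shares say how large each set was and test nothing. The set that peaked first was the only one to hold over 20% of reads at both ends of the series.

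**Figure D4:**
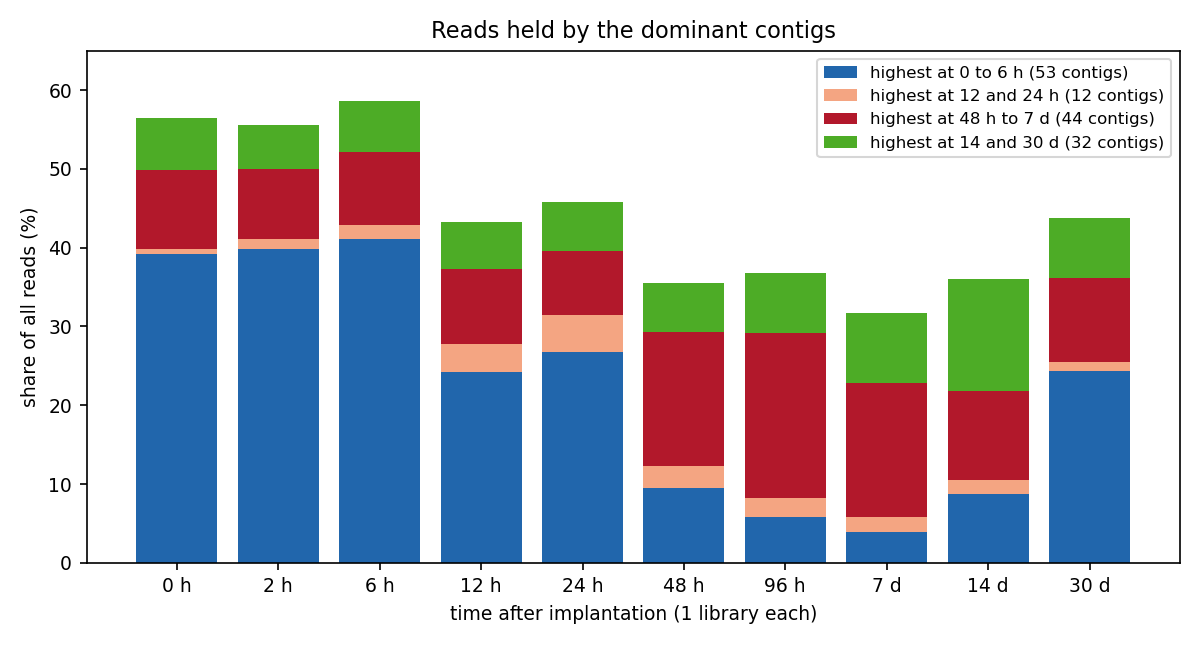
Percentage of all reads of each library held by the dominant contigs, split by the library in which a contig was highest (53 at 0 to 6 h, 12 at 12 or 24 h, 44 at 48 h to 7 d, 32 at 14 or 30 d). The first set goes from 41.1% at 6 h to 3.96% at 7 d and back to 24.3% at 30 d.

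Among contigs that were high at the start, the widest spans were those of contig218128 and contig003632. Contig218128, of 2096 bases, stood at 9170, 4693, 2957, 2721 and 2373 CPM from 0 to 24 h, at 513 and 426 CPM at 48 and 96 h, at 29 CPM at 7 d, and at 142 and 1572 CPM at 14 and 30 d. Its highest and lowest libraries differed 318-fold (294 to 345), the widest span of the 141, and 767-fold with TMM. Its rank was 12 in the first library, 3836 at 7 d and 85 in the last. Contig003632, of 1635 bases, went from 2948, 2493, 1853, 1135 and 2014 CPM over the first day to 411, 164 and 11 CPM at 48 h, 96 h and 7 d, and to 276 and 769 CPM at 14 and 30 d. Its span was 274-fold (241 to 313). Neither had regained its 0 h level at 30 d, where they stood at 0.171 and 0.261 of it, or 0.118 and 0.180 with TMM. Contig169027 stood at 1.07 times its own 0 h level on library totals and at 0.735 of it with TMM.

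As a set, the 47 contigs that were at least 4-fold lower at 7 d than at 6 h, chosen by that difference, held 40.0% of reads at 6 h and 2.50% at 7 d, with a median 7 d level of 0.0521 of that at 6 h. In the libraries the choice did not use, they held 37.2% of reads at 0 h and 24.2% at 30 d. Between these libraries, on library totals, 28 of them were within 2-fold, 18 were more than 2-fold lower at 30 d and 1 was more than 2-fold higher. This split depends on scaling, and with TMM the larger part of the set was more than 2-fold lower. For example, the 30 d to 0 h ratio was 0.523 for contig121106 and 0.361 with TMM, and 0.627 and 0.432 for contig065060. The 1 higher, contig058551, had 2.28 and, within 2-fold, 1.57 with TMM. Of all 141 dominant contigs, 99 (70.2%) were within 2-fold of 0 h at 30 d, and 83 (58.9%) with TMM, against 89.4% and 90.5% of all contigs tested. In the 992 contigs of 100 to 1000 CPM, where the added 1 CPM matters little, 79.0% were within 2-fold, and 72.6% with TMM.

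The 44 contigs highest from 48 h to 7 d were mixed at the start, from contig200588, which ranked 2 at 0 h, to contigs that were scarce there. Contig253341, of 421 bases, stood at 187, 668, 50, 509 and 1075 CPM from 0 to 24 h, at 5492 and 11193 CPM at 48 and 96 h, and at 9216, 4392 and 724 CPM at 7, 14 and 30 d. It ranked 1417 at 6 h and 2 at 96 h and 7 d, and its span was 222-fold (209 to 236), or 104-fold with TMM. Contig224019, of 685 bases, stood at 70, 416, 284, 1079 and 1296 CPM on the first day, at 6425 and 10823 CPM at 48 and 96 h, and at 5303, 1131 and 140 CPM after that, a 155-fold span (147 to 163). Both were highest at 96 h under either scaling, and contig253341 stayed nearer to that level at 7 d than contig224019 did.

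Contig047882, of 1000 bases, went from rank 719 at 0 h to rank 2 at 48 h. Its levels were 126, 453, 182, 1399 and 1402 CPM to 24 h, 8057 CPM at 48 h, 3181 CPM at 96 h, and 1663, 996 and 2052 CPM at 7, 14 and 30 d. It was the contig whose mean rested most on a single library, with 41.3% of its summed level at 48 h. Contig044707, of 857 bases, shared the high library at 48 h on library totals but held on longer. Its levels were 144, 752, 286, 1967, 1731, 7616, 6879, 2175, 710 and 194 CPM from 0 h to 30 d. With TMM contig044707 was highest at 96 h and contig047882 still at 48 h. The 20 contigs that were at least 4-fold higher at 7 d than at 6 h held 0.737% of reads at 6 h, 8.51% at 96 h and 2.29% at 30 d, a smaller volume than the 47 that went down.

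A few contigs were highest at 12 or 24 h or had a broad high that began there. Contig113681, of 2941 bases, stood at 52, 917, 1855, 5228 and 6345 CPM from 0 to 24 h, at 2097 and 568 CPM at 48 and 96 h, and at 530, 111 and 109 CPM at 7, 14 and 30 d. Contig240824, of 5315 bases, had a like course with 37, 1712, 2636, 4537, 5708, 816, 333, 711, 308 and 137 CPM, a 155-fold span (145 to 166). At 0 h they ranked 1470 and 1903, and at 12 h 15 and 19. Contig142383, of 1327 bases, was at 48 CPM at 0 h, 3544 CPM at 12 h, 3973 CPM at 48 h, 29 CPM at 14 d and 1416 CPM at 30 d, a 139-fold span (128 to 150). Its highest library was 48 h on library totals and 12 h with TMM. Contig314898, of 2665 bases, stayed high longest of these, with 234, 883, 733 and 3600 CPM to 12 h, then 9727, 8039, 9201 and 5187 CPM from 24 h to 7 d, and 1048 and 4240 CPM at 14 and 30 d.

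Late leaders were of another kind, already abundant at the start. Contig320117, of 5435 bases, stood at 5482, 5532, 8298, 5641 and 8815 CPM to 24 h, at 2835 and 3451 CPM at 48 and 96 h, and at 7105, 18398 and 11080 CPM at 7, 14 and 30 d. Contig005164, of 5948 bases, stood at 4968, 4698, 7509, 4509, 6150, 2354, 3342, 7123, 17053 and 7613 CPM in the same order. The ratio of the first to the second ran from 0.997 at 7 d to 1.46 at 30 d, so they moved as a pair with a low at 48 h and a high at 14 d. Contig005661, of 1732 bases, held rank 3 at 7 d with 8311 CPM and was at 10526 CPM at 14 d, but at 4220 to 6613 CPM in the other 8 libraries. With TMM its highest library was 0 h, whereas contig320117 and contig005164 were highest at 14 d on both scales.

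At the other end, some dominant contigs hardly moved on library totals. Contig191264, of 3570 bases, stood between 2053 CPM at 6 h and 3152 CPM at 7 d, a 1.54-fold span (1.52 to 1.55). Contig062669 spanned 1.59-fold (2316 to 3685 CPM), contig058726 1.68-fold (2134 to 3595 CPM) and contig124033 1.79-fold (2217 to 3958 CPM). These 4 kept ranks between 21 and 75 in every library. In all, 7 of 141 spanned less than 2-fold, 65 between 2 and 10-fold, 62 between 10 and 100-fold and 7 at least 100-fold, with a median of 9.78-fold. With TMM 2 contigs spanned less than 2-fold, none of them among these 7. On that scale the 7 spanned from 2.04-fold (contig124033) to 3.19-fold (contig062669), and contig191264 spanned 2.28-fold. How steady a contig looks thus depends on scaling, for some much more than for others. With 1 CPM added, the median span was 9.75-fold in the dominant contigs and 4.83-fold in the 992 of 100 to 1000 CPM. Both sets were chosen by their mean over these libraries, which a single high library can raise. Of the 141, 19 had a mean under 1000 CPM without their highest library. The 2 medians are therefore a description and test nothing.

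Coordinated subgroups were looked for through ratios within libraries. A subgroup is a set of 3 or more contigs in which the ratio of any pair stayed within 2-fold over all 10 libraries. There were 11 such subgroups holding 35 of the 141 contigs. Contigs that hardly move can meet this limit without moving together, so the ratio range has to be read beside the span. Of the 9870 pairs, 139 (1.41%) stayed within 2-fold, beside 1.58% of 491536 pairs in the 100 to 1000 CPM class, whose contigs also moved less. The median pair of dominant contigs varied 27.0-fold in ratio, and 66 contigs had no partner within 2-fold.

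The largest subgroup was led by contig232834 and held also contig198058, contig250138, contig053181 and contig223662, of 185 to 2545 bases. Their ratios moved by at most 1.97-fold. Their median course, the median level in each library, spanned 21.2-fold, from a high at 6 h to a low at 7 d. Single members spanned 20.7 to 30.6-fold. Contig169027 led contig084641 and contig288211 (ratios within 1.96-fold, against a span of the median course of 13.8-fold). Contig108818 led contig170695 and contig299741 (1.40-fold, against 18.8-fold for the median course). Contig102855 led contig128515 and contig090835 (1.85-fold, against 34.9-fold for the median course). These 4 subgroups, 14 contigs, had a common course of high early, low late and up again at 30 d. They held 15.2, 14.5, 18.7, 8.98 and 13.3% of reads from 0 to 24 h, 3.04, 1.30 and 0.973% at 48 h, 96 h and 7 d, and 4.01 and 10.2% at 14 and 30 d. Of the 14, 11 were highest at 6 h and 13 lowest at 7 d.

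Contig200588, the contig that took over the first rank, was in a subgroup with contig117677 and contig189806, whose ratios to each other moved by at most 1.58-fold. Their median course was lowest at 24 h and highest at 96 h, with a 2.33-fold span on library totals, while with TMM all 3 were highest at 0 h. The other 6 subgroups were led by contig005661, contig070899, contig124033, contig028989, contig243989 and contig244039. In 5 of these the median course spanned 3.07-fold or less, while single contigs in them spanned up to 3.74-fold (contig070899). Ratios moved up to 1.81-fold in the subgroup of contig005661 and 1.71-fold in that of contig124033. Their median courses spanned less, 1.68 and 1.54-fold, so these 2 subgroups were level and show no common movement. For contig070899, contig243989 and contig244039 the ratios moved up to 1.82, 1.94 and 1.64-fold, against spans of 3.07, 2.73 and 2.76-fold. The median course of contig028989, contig113255 and contig116118 spanned 7.54-fold, with its high at 12 h and its low at 30 d. None of the contigs with a span of 100-fold or more was in a subgroup. When pairs were allowed to vary 4-fold, a limit added after the data were seen, 92 contigs fell into 19 groups, of which the largest held 13 contigs led by contig005661 and 10 led by contig200588.

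**Figure D5:**
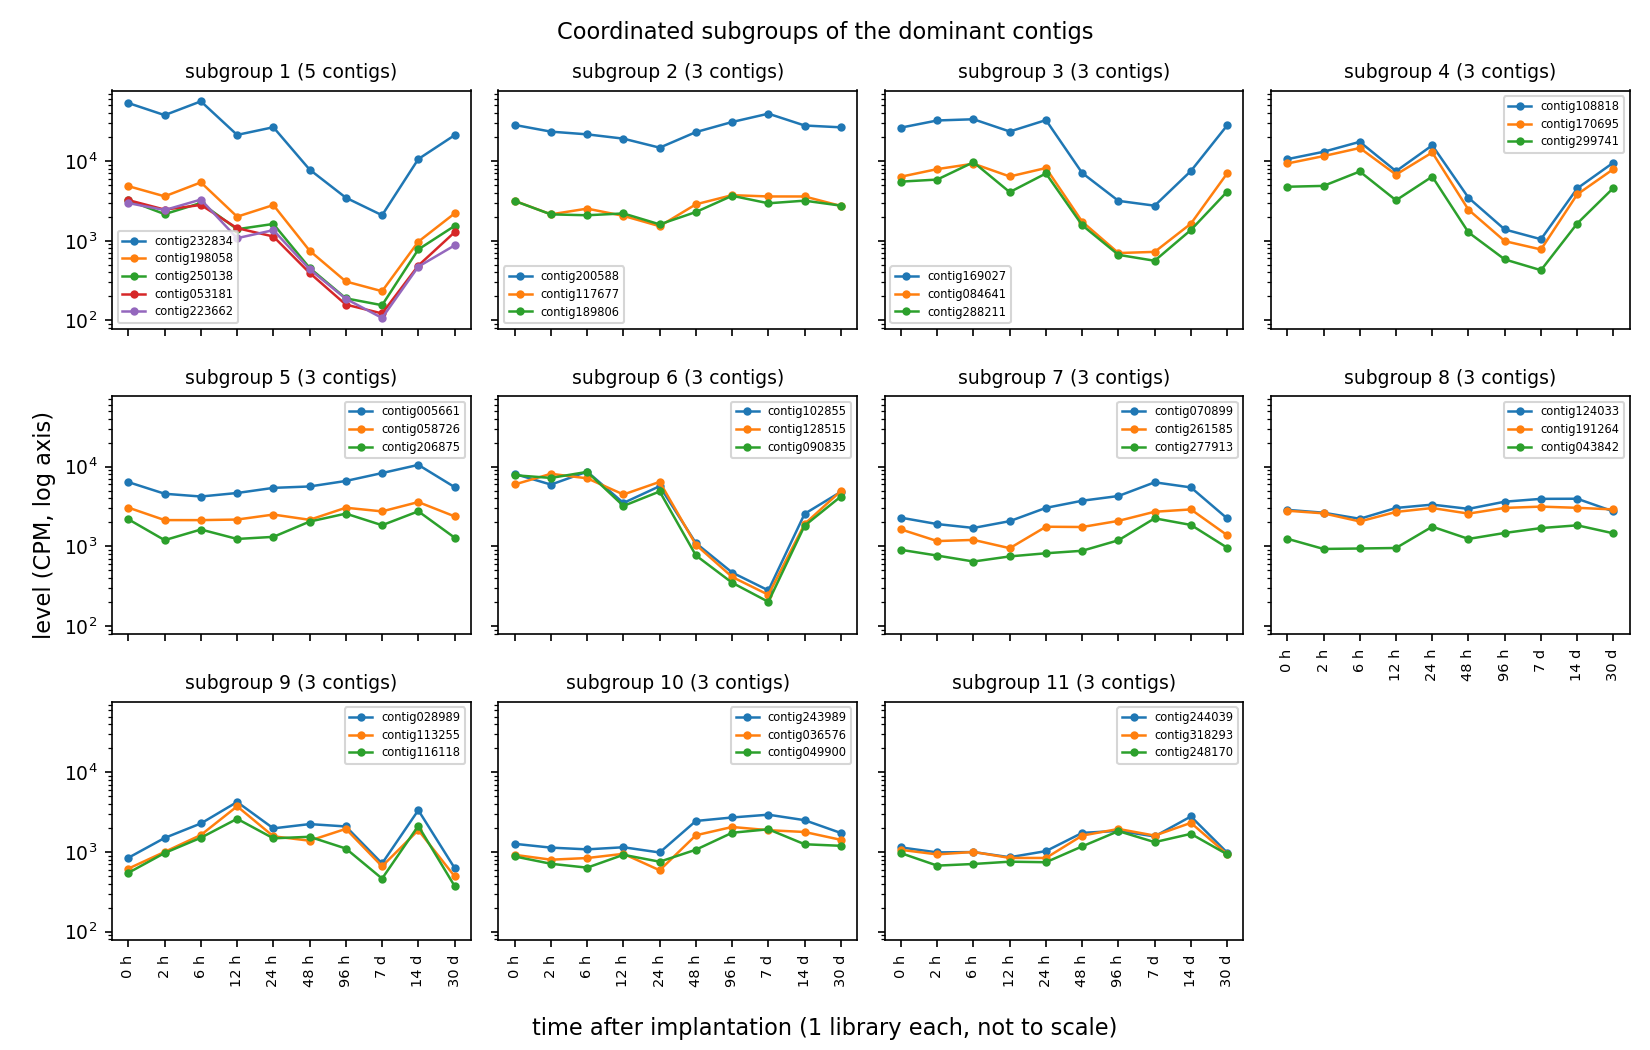
Course of the 11 coordinated subgroups, each line a contig, in CPM on a log axis against time. Lines within a panel run in parallel because ratios within 2-fold define a subgroup, and the panels led by contig232834, contig169027, contig108818 and contig102855 dip from 48 h to 7 d.

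Some pairs were tied much more closely than their own movement. Contig232834 held between 8.98 and 11.3 times the reads of contig198058, of 387 bases, a 1.25-fold range while contig232834 itself moved 26.9-fold. Contig138576, of 1941 bases, held 5.26 to 6.63 times the reads of contig165717, of 540 bases, a 1.26-fold range against a 72.8-fold span. Contig169027 held 3.61 to 4.58 times the reads of contig084641, of 618 bases. These pairs were named for their small ratio range. Whether 2 such contigs are pieces of 1 transcript was not tested, and reads of near-identical copies may have been split between them.

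The dominant contigs were short compared with the next class. The shortest had 90 bases, the longest 14073 and the median contig 1592, against 2657 in the 992 contigs of 100 to 1000 CPM and 405 in all contigs with a length. Contigs of over 5000 bases made up 11.3% of the dominant ones, 23.5% of the next class and 1.07% of all. Contigs under 300 bases made up 7.80%, 4.33% and 29.3%. The 47 contigs that were 4-fold lower at 7 d than at 6 h had a median length of 1276 bases, and the 20 that were 4-fold higher had 2397.

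The longest were contig208589 (14073 bases), contig277913 (10493) and contig257318 (9410). Contig208589 stood between 301 CPM at 6 h and 2570 CPM at 7 d and contig277913 between 645 and 2248 CPM in the same libraries, so both were lowest at 6 h and highest at 7 d. With TMM their lowest libraries were 2 h and 48 h, and contig277913 was highest at 14 d. Contig257318 went the opposite way, from 4629, 5095 and 3236 CPM at 0, 2 and 6 h to 486 CPM at 14 d and 1278 CPM at 30 d. The shortest were contig335815 (90 bases), contig097695 and contig222215 (both 92), with means just over 1000 CPM in the first and the last of them. At these lengths a contig is shorter than the 300 to 500 bases of adapter-ligated cDNA selected for sequencing, per the labels.

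The order by reads per length was another one. In the deposited RPKM the highest means were 39448 for contig022043 (99 bases), 35908 for contig097695 and 34501 for contig306340 (115 bases), followed by contig169027 with 23594. Only 3 contigs were among the first 10 by both measures, and the median length of the first 10 was 119.5 bases by RPKM and 1666.5 by reads. Contig208589 had a mean RPKM of 75.7 and ranked 839. By RPKM 5 different contigs held the first rank: contig022043 at 0 h and from 7 d on, contig169027 at 2 h, contig097695 at 6 and 96 h, contig306340 at 12 and 48 h, and contig108818 at 24 h. Contig232834 and contig200588, first by reads in 7 libraries between them, ranked 15 and 6 by mean RPKM.

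Several of the shortest contigs were lowest at 24 h, as were 19 of all 141. Contig022043 stood at 4132, 3102, 4313 and 3394 CPM to 12 h, at 1243 CPM at 24 h, at 3490 and 6506 CPM at 48 and 96 h, and at 5855, 2435 and 4588 CPM after that. Contig306340 stood at 3358, 2950, 5178 and 4324 CPM, then 1185 CPM at 24 h, 5193 and 8795 CPM at 48 and 96 h, and 3013, 2768 and 2914 CPM. Contig097695 went from 3145 CPM at 12 h to 342 CPM at 24 h and 3015 CPM at 48 h. Of the 11 dominant contigs under 300 bases, 5 were lowest at 24 h and 5 highest at 96 h, and together they held 2.00 and 1.21% of reads at 12 and 24 h, then 2.09 and 3.24% at 48 and 96 h. Contig001921, of 124 bases, went the other way and was highest at 24 h with 3914 CPM. With TMM the low of these 3 contigs was still at 24 h, while their high was at 6 h. Recovery of short fragments in the single 24 h library was not tested as a part of this.

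A smooth curve over all 10 libraries was the only test the design allowed. In edgeR's quasi-likelihood F test, 7 of the 141 (4.96%) were called at an adjusted p under 0.05, against 6.23% of the 52894 contigs tested. Whether the dominant contigs were called more or less often than others depended on the fit: their share was above that of all contigs in 9 of 17 alternatives, such as limma-voom with 15.6% against 5.34%, the DESeq2 likelihood ratio test with 34.0% against 18.0%, the rank of time with 16.3% against 9.76%, and edgeR without the 30 d library with 39.0% against 10.6%. At an unadjusted p under 0.05 there were 51 of 141 (36.2%) and 15358 of 52894 (29.0%). Peaks were 3 of 141 against 2.44%, troughs 1 against 3.39%, falls 3 against 0.268%, and rises 0 against 0.13%. The test fits linear and quadratic terms of log time only. The leaders with a low at 7 d and a return at 30 d were not called. In this edgeR test the adjusted p was 0.13 for contig232834 and 0.32 for contig169027. Why they were not called was not tested.

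The 3 falls were contig071908 (edgeR adjusted p = 0.0128), contig257318 (0.0317) and contig176218 (0.0404). Contig071908, of 3122 bases, stood at 4211, 3264, 2027, 1904 and 1191 CPM from 0 to 24 h, and at 651, 913, 523, 513 and 737 CPM from 48 h to 30 d. Contig176218, of 7675 bases, stood between 2899 and 6268 CPM up to 7 d and at 1264 and 1561 CPM at 14 and 30 d. The first was thus below its first-day levels in every later library, and the second was lowest in the last 2. The 3 peaks were contig113681 (edgeR adjusted p = 0.0219, with the fitted turn at 19.7 h), contig044707 (0.0362, at 29.6 h) and contig224019 (0.0365, at 41.6 h), whose values are given above. Contig247351, of 1042 bases (edgeR adjusted p = 0.0235), counted as a trough by its fitted turn at 9.32 h. It was at 319 to 545 CPM to 48 h, at 1204, 1071 and 1637 CPM from 96 h to 14 d and at 3684 CPM at 30 d. Its 30 d level was 9.38 times that at 0 h, or 6.46 times with TMM, so its main change was a late increase. Without the 30 d library its adjusted p was 0.155 and its mean was below the limit of 1000 CPM, and without the 24 h library the adjusted p was 0.0555.

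Only contig071908 and contig113681 were called in edgeR whichever library was left out, with adjusted p of at most 0.0303 and 0.0479. Contig044707 and contig224019 were no longer called without any one of the 0, 2, 12, 24 or 48 h or the 7 or 14 d libraries, where the adjusted p reached 0.0782 and 0.069. Contig257318 was not called without the 2, 12, 24, 48 h, 7 d or 14 d library (adjusted p up to 0.0666). Contig176218 was not called without any of these or the 96 h library (up to 0.0875), nor on library totals (0.108) or without the filter on low counts (0.0693). The direction of the 7 was the same in every setting tried. The count of 7 was 2 without the 24 h library (1.42%, against 1.76% of all contigs). It was 3 (2.13%) without that of 2 h, 12 h, 48 h or 7 d, against 2.67 to 3.55% of all. Larger counts came without the 0 h library (24, 17.0% against 8.84%) and the 6 h library (17, 12.1% against 14.5%). Without the 30 d library the count was 55 (39.0% against 10.6%).

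The limit itself was not a break in the data. Just inside it were contig155516 with a mean of 1030 CPM, contig247351 with 1011 and contig012371 with 1006. Just outside were contig254728 with 983, contig144016 with 972 and contig135013 with 968. Leaving out the highest library of each contig, 19 of the 141 had a mean under 1000 CPM, and 31 were at 1000 CPM or more in every library.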

How the data were processed

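RNA of the pearl sac was sequenced at 10 times with 1 library each. Each file deposited by the authors lists, per the file headers, the reads and the RPKM (reads per length and library total) of assembled contigs. The deposited reads were treated as estimated counts: they are whole except 0.5, which stands where RPKM is 0 and was read as 0. The assembler, aligner and counting program are not given in the sources here. Contig lengths were derived from reads, RPKM and totals and lay within a relative distance of 5.6e-08 of whole numbers. In the 30 d file 1 unreadable line cost 166 contigs (0.105% of its reads), none abundant enough to be a dominant contig. No column belonged to other samples.

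CPM is reads scaled to the full library total, and dominant contigs have a mean of at least 1000. Ratios have exact 95% intervals for counting error only, which PCR copies make too narrow. The smooth change was fitted with edgeR 4.0.16 (R 4.3.3, limma 3.58.1): TMM factors, filterByExpr on a trend in log2(hours + 1), then linear and quadratic terms tested jointly by quasi-likelihood with 7 residual degrees of freedom and Benjamini-Hochberg adjustment over 52894 contigs, and DESeq2 1.42.0 as an alternative. A fitted turn between 2 h and 14 d makes a peak or trough. The test was tried on simulated counts with 200 changed contigs, each given a peak or trough of the shape that the test fits. That trial does not bear on courses of another shape, and nothing above rests on its outcome. Subgroups came from complete linkage on the range of the log2 ratio.

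Contigs named are those ranked 1 to 3 in any library, the 6 widest and 4 narrowest spans, the 3 longest and 3 shortest, the 3 highest in RPKM, the 3 on either side of the limit, subgroup leads (with up to 3 more in the 3 largest), and contigs called by the test. Others were named after their values were seen. Members, rules and tests were chosen with earlier results of these data known.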

Additional observations from a re-analysis of the deposited data

How the results depend on the processing

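No paired analysis was possible because each time has 1 library. The number of dominant contigs called with a smooth change, 7, depended on the fit, as did the share called among all contigs tested. The number was 27 with library totals (19.1%, all contigs 14.2%), 41 without a filter on low counts (29.1%, all 7.42%) and 23 with the rank of time (16.3%, all 9.76%). Limma-voom gave 22 (15.6%, all 5.34%) and the DESeq2 likelihood ratio test 48 (34.0%, all 18.0%). Robust dispersions, added after seeing the data, gave 13 (9.22%, all 6.47%). With a library left out, the number ran from 2 without 24 h (1.42%, all 1.76%) to 55 without 30 d (39.0%, all 10.6%). The cause was not tested. For the 7 called contigs, 88 of 119 values under these settings stayed past the threshold, 31 did not, and 0 turned direction. Contigs up or down at least 2-fold over successive times summed to 399, and to 139 at 4-fold. By time of the highest library, TMM gave 85 for 0 to 6 h, 20 for 48 h to 7 d and 21 for 14 and 30 d. Coordinated subgroups held 35 contigs, 6 at a 1.5-fold limit, 67 at 3-fold, 92 at 4-fold, and 34 to 45 when a library was left out. Ranked by RPKM, 5 contigs held the first rank in place of 3. The number of dominant contigs was 144 with TMM.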
